A study of Mus musculus with 2 samples.

Results

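The genes followed here encode transcription factors that are induced by signals through the T cell receptor (TCR), and their transcripts were counted in T cells sorted from the pancreatic islets of nonobese diabetic (NOD) mice. They are Nr4a1, Nr4a2, Nr4a3, Egr2, Egr3, Irf4, Batf, Nfatc1, Bhlhe40 and Myc. They were chosen by symbol, as 10 of the 27998 genes in the count matrices, and each of the 10 had an entry. The study prepared 1 droplet library (Chromium 3′ chemistry) per genotype, and each library pooled islet T cells of 6 females. One library came from NOD.Foxp3-EGFP mice, which are wild type for Tnfrsf9, and the other from NOD.Tnfrsf9-/-.Foxp3-EGFP mice, in which Tnfrsf9 (CD137, 4-1BB) is disrupted in every cell of the body. All mice were 9 to 10 weeks old and untreated, and mice of both genotypes carried an eGFP reporter of Foxp3, which labels regulatory T cells (Tregs). CD45.1+ CD8 T cells and CD45.1+ CD4+ eGFP+ Tregs were sorted and loaded together, so lineages had to be separated by RNA and the CD8 to Treg ratio of a library says nothing of the islet.

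Stimulation of the TCR reaches these genes by several routes. Calcium and calcineurin bring NFAT proteins, including the product of Nfatc1, into the nucleus, while the Ras and ERK route acts through serum response factor and CREB. The orphan nuclear receptors Nr4a1 to Nr4a3 and the zinc finger proteins Egr2 and Egr3 are transcribed within minutes to hours of antigen contact, and their transcripts are short-lived. Irf4 and Batf bind DNA together and drive effector differentiation in CD8 T cells and Tregs, Bhlhe40 is a repressor linked to cytokine production and tissue residence, and Myc raises ribosome synthesis and growth. Tnfrsf9 is itself a TCR-induced costimulatory receptor, so its UMIs per cell served here as a sign of recent antigen contact.

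Bases just before the transcription start were taken from a table of RefSeq promoters (GRCm38.p6). Windows of 6 of the 10 genes were used (Nr4a1, Nr4a2, Nr4a3, Egr2, Irf4 and Batf), and those of the other 4 were not analysed here. Sequences are shown for Nr4a1, Nr4a2, Nr4a3 and Egr2, which had the largest single ratios of these 6 between the lineages or with Tnfrsf9. Capitals mark TGACG, the core of the cyclic AMP response element (CRE) bound by CREB and ATF proteins, or its complement CGTCA. The windows are chr15:101266596-101266845 for Nr4a1 (plus strand, inside an intron of longer annotated Nr4a1 transcripts), chr2:57124004-57124253 for Nr4a2 (minus strand), chr4:48045055-48045152 for Nr4a3 (plus strand) and chr10:67537619-67537868 for the third of 5 listed starts of Egr2 (plus strand).
Nr4a1: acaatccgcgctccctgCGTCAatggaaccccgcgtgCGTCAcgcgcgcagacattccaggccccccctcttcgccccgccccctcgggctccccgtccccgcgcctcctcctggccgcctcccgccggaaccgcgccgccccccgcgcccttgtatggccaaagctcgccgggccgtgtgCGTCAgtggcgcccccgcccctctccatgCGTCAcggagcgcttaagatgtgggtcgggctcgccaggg
Nr4a2: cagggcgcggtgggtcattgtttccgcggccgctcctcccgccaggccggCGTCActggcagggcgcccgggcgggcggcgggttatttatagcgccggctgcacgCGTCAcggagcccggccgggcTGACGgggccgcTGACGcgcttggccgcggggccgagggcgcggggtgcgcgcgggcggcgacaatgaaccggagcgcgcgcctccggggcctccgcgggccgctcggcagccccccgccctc
Nr4a3: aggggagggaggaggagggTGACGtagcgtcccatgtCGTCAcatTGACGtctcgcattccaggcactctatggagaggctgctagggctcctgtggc
Egr2: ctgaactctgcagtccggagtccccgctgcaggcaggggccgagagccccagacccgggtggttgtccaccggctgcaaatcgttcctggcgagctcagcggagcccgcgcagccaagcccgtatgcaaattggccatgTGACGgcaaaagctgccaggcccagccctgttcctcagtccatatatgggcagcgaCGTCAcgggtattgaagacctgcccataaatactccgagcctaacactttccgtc
Each of the 3 Nr4a genes had 4 cores in its 250-base window, of which 3 lie in the 98 bases shown for Nr4a3, where exon bases were left out. Among 32851 RefSeq windows of the same length, 17.8% held at least 1 core and 0.137% held 4 or more. The Egr2 window shown held 2 cores, as did those of the overlapping starts 4 and 5, while the windows of starts 1 and 2 held none. It also held 1 match to the CArG box of serum response factor, a motif present in 1.47% of windows. The Irf4 window held no core, and the Batf window held 1. With both strands read, the AP-1 motif TGANTCA matched in none of these windows of the 6 genes, against 6.75% of all windows, and the EGR motif GCGNGGGCG matched once each in Nr4a1 and Nr4a2, against 4.70%. These are matches of letters, and binding was not measured.

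Cells were kept when they had between 200 and 5000 detected genes and no more than 20% of UMIs from mitochondrial genes. A cell was called a CD8 T cell when it had at least 2 Cd8a and Cd8b1 UMIs and no Cd4 or Foxp3 UMI, and a Treg when it had no Cd8a or Cd8b1 UMI and at least 1 UMI of Cd4, Foxp3, Il2ra or Ikzf2. The rule gave 891 WT and 1200 KO CD8 T cells (median 6076 and 5275 UMIs) and 1552 WT and 1444 KO Tregs (median 4302 and 4308.5 UMIs). A further 271 cells in each library met neither rule. The 2 libraries shared 16 cell barcodes. In the CD8 T cells Cd8a was detected in 97.0% of WT and 96.5% of KO cells, and Ikzf2, shared by Tregs and some CD8 T cells, in 40.3% and 28.1%. In the Tregs Ikzf2 was detected in 95.4% of WT and 93.6% of KO cells but Foxp3 in 13.2% and 19.5%, so the class rests mainly on Ikzf2 and Cd4 and not on Foxp3 RNA. Markers of other cells were summed as CPM (UMIs of a gene per 1e6 UMIs summed over the cells of a class). Erythroid markers reached at most 0.285 CPM, B cell markers 2.25 to 8.60 CPM, endocrine markers 10.6 to 22.8 CPM and myeloid markers 145 to 305 CPM in any class, with Csf1r at 0 in 3 of the 4 classes. Acinar markers stood at 68.0 CPM in WT and 25.4 CPM in KO CD8 T cells, NK cell markers at 99.9 and 33.3 CPM, with Klrb1c at 0 in the WT cells, and endothelial or stromal markers at 42.8 and 77.9 CPM. In CD8 T cells the NK, endothelial or stromal and myeloid sums each came mainly from 1 gene. Eomes held 700 of 701 NK cell marker UMIs in WT and 257 of 263 in KO cells. It was detected in 37.4% and 11.7% of these cells. Pecam1 held 280 of 300 and 603 of 616 endothelial or stromal UMIs, and Cst3 1106 of 1224 and 1077 of 1145 myeloid UMIs. Prss2 held 388 of 477 acinar UMIs in WT and 105 of 201 in KO cells. The acinar genes did not share a direction. Prss2 and Cela1 (11.1 and 6.32 CPM) were higher in WT, and Ctrb1 (1.14 and 4.81 CPM) and Cpa1 (0.43 and 1.01 CPM) in KO cells. The part of these markers in the genotype ratios was not tested. No cell type known to lack these factors was sorted, so the share of cells with a UMI that comes from free RNA could not be measured.

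The targeted gene was lower but not absent in the KO library. Tnfrsf9 stood at 106 CPM in WT and 32.0 CPM in KO CD8 T cells (log2 ratio -1.73), and at 337 CPM in WT and 110.1 CPM in KO Tregs (-1.61). UMIs assigned to the disrupted gene were thus still counted, and which part of the transcript they come from cannot be read from a count per gene. A given number of Tnfrsf9 UMIs does not stand for the same state in both genotypes, so the comparisons by Tnfrsf9 were made within a genotype, and KO to WT ratios at an equal number of Tnfrsf9 UMIs are given only as values. With 1 library per genotype no difference between genotypes has a replicate check, and no test was made. The 95% intervals given for CPM values and for log2 ratios are exact Poisson and exact conditional intervals, those for shares of cells are Clopper-Pearson intervals, and all of them cover counting error only. A gene was counted as higher or lower past 1.5-fold among genes with at least 20 UMIs in the 2 groups together.

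The Nr4a genes divided between the lineages. Nr4a1 (ENSMUSG00000023034, chr15:101254269-101274795, plus strand; mm10 coordinates throughout), the family member most used as a reporter of TCR signal strength, was at 32.4 CPM in WT CD8 T cells, 29.3 CPM in KO CD8 T cells, 100.5 CPM in WT Tregs and 67.6 CPM in KO Tregs. It was therefore 3.10-fold lower in CD8 T cells than in Tregs in the WT library (log2 ratio -1.63, interval -1.85 to -1.42) and 2.30-fold lower in the KO library (-1.20, interval -1.43 to -0.98). Nr4a2 (ENSMUSG00000026826, chr2:57106830-57124003, minus strand) had the opposite order, at 115.9 and 121.9 CPM in WT and KO CD8 T cells and 43.6 and 40.7 CPM in WT and KO Tregs. The log2 ratio of CD8 T cells to Tregs was 1.41 (interval 1.23 to 1.59) in WT and 1.58 (interval 1.40 to 1.77) in KO. Both orders held in the 2 libraries and under 11 of 11 other settings in each. Nr4a3 (ENSMUSG00000028341, chr4:48045153-48086447, plus strand) was at 14.8, 19.3, 26.1 and 22.8 CPM in WT CD8, KO CD8, WT Treg and KO Treg cells, lower in CD8 T cells by log2 -0.82 in WT (interval -1.16 to -0.48). In KO its ratio was -0.24, with an interval of -0.56 to 0.08 that includes 0.

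No other gene of the set differed between the lineages as much as Nr4a1 and Nr4a2 did in either library. Egr2 (ENSMUSG00000037868, chr10:67535475-67542188, plus strand), which restrains activated T cells, was at 21.2 CPM in WT and 14.9 CPM in KO CD8 T cells and at 13.5 and 12.0 CPM in WT and KO Tregs. In the WT library it was higher in CD8 T cells by log2 0.65 (interval 0.30 to 1.01). In the KO library its ratio was 0.31 (interval -0.09 to 0.71), and -0.84 under a stricter lineage rule. Its relative Egr3 (ENSMUSG00000033730, chr14:70077203-70082614, plus strand) was all but undetected, with 0, 2, 2 and 1 UMIs in WT CD8, KO CD8, WT Treg and KO Treg cells, and the 0 of 891 WT CD8 T cells allow a share of up to 0.337% of cells with a UMI (3 counts over the number of cells). No ratio was taken for Egr3. Nfatc1 (ENSMUSG00000033016, chr18:80606205-80713071, minus strand), which also carries the autoregulated short NFAT isoform of activated T cells, differed little, at 92.2, 105, 84.9 and 93.7 CPM in the same order. Counts at the 3′ end do not separate its isoforms.

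Batf (ENSMUSG00000034266, chr12:85686669-85709087, plus strand) was at 275 CPM in WT and 179.6 CPM in KO CD8 T cells and at 367 and 268 CPM in WT and KO Tregs. It was lower in CD8 T cells by log2 -0.42 in WT and -0.58 in KO. Its partner Irf4 (ENSMUSG00000021356, chr13:30749226-30766976, plus strand) was at 26.8, 40.5, 40.7 and 48.1 CPM in WT CD8, KO CD8, WT Treg and KO Treg cells, with the WT CD8 T cells the lowest of the 4. Bhlhe40 (ENSMUSG00000030103, chr6:108660629-108666925, plus strand) was higher in CD8 T cells (60.2 and 63.6 CPM in WT and KO) than in Tregs (45.0 and 33.9 CPM), by log2 0.42 in WT and 0.91 in KO. A gene on the opposite strand, 0610040F04Rik, overlaps it. Myc (ENSMUSG00000022346, chr15:61985391-61990374, plus strand) was highest in KO CD8 T cells at 35.7 CPM, against 21.5 CPM in WT CD8 T cells, 22.5 CPM in WT Tregs and 24.8 CPM in KO Tregs. A single KO Treg held 29 of the 202 Myc UMIs of that class.

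**Figure D1:**
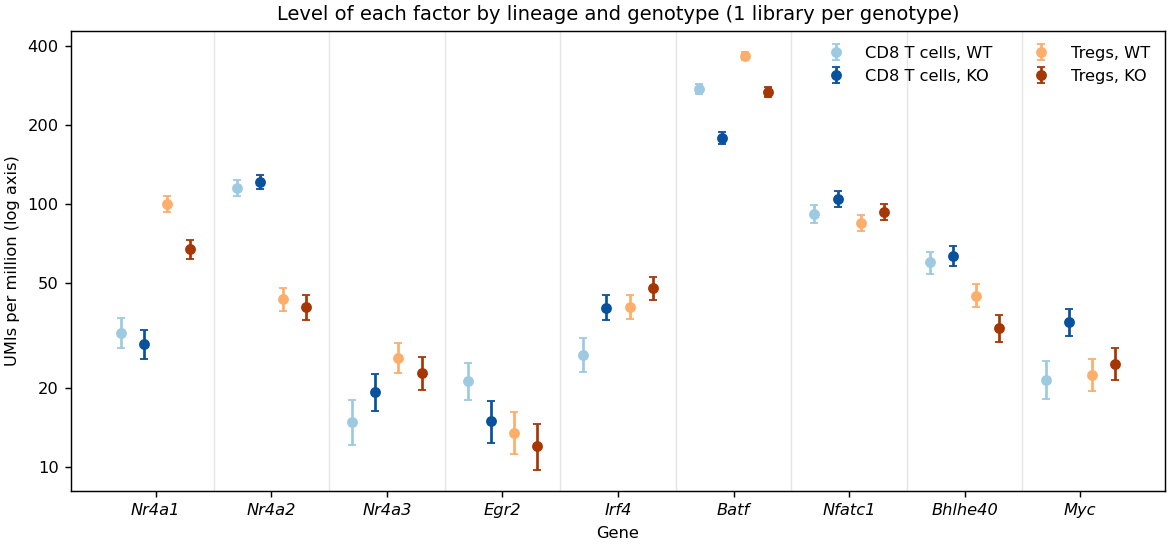
CPM of 9 genes (Egr3 is not shown; y axis, log scale) in the 4 classes of lineage and genotype, with exact Poisson 95% intervals that cover counting error only; each point is 1 pool of cells of 1 library. Nr4a1 is higher in the 2 Treg classes (100.5 and 67.6 CPM) than in the CD8 classes, and Nr4a2 is higher in the 2 CD8 classes (115.9 and 121.9 CPM) than in the Treg classes.

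In the WT library 2 of the 9 measurable genes were higher in CD8 T cells past 1.5-fold (Nr4a2 and Egr2; 8.78% of all genes were) and 3 were lower (Nr4a1, Nr4a3 and Irf4; 19.4% of all genes). Their median log2 ratio was -0.06, against -0.12 over all genes. In the KO library 2 were higher (Nr4a2 and Bhlhe40; 8.39% of all genes) and 1 was lower (Nr4a1; 17.5%), with a median of 0.17 against -0.15. The genes did not shift together between the lineages. Signal was uneven over cells: the 78 WT Tregs with the most Nr4a1 UMIs, 5% of that class, held 55.3% of its Nr4a1 UMIs, and the corresponding 45 WT CD8 T cells held 90.4% of the Nr4a3 UMIs but 26.4% of the Batf UMIs. Such shares also depend on how many UMIs a gene has. In WT CD8 T cells Nr4a3 had 104 UMIs in 55 cells, and Batf had 1930 UMIs in 606 cells. Because signal was uneven over cells, intervals on pooled counts are narrower than the spread between cells would give.

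Batf was lower in the KO library in both lineages. The KO to WT log2 ratio of Batf was -0.62 (interval -0.72 to -0.52; 179.6 against 275 CPM) in CD8 T cells and -0.45 (interval -0.53 to -0.37; 268 against 367 CPM) in Tregs. With each cell reduced to 2000 UMIs, a Batf UMI was found in 37.1% of WT and 24.7% of KO CD8 T cells and in 42.2% of WT and 32.9% of KO Tregs. Batf stayed lower in KO cells under all 13 other settings in each lineage, from -0.83 to -0.10 in CD8 T cells and from -0.57 to -0.12 in Tregs. The values nearest 0 came from cells with 2 or more Tnfrsf9 UMIs, which are not matched in state between the genotypes.

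In CD8 T cells Irf4 and Myc were higher in the KO library, by log2 0.59 (interval 0.33 to 0.86; 320 UMIs against 188) and 0.73 (interval 0.44 to 1.02; 282 UMIs against 151). Nr4a3 (0.38, interval 0.02 to 0.76) and Nfatc1 (0.19, interval 0.04 to 0.34) were slightly higher and Egr2 was lower (-0.51, interval -0.87 to -0.15), none of them past 1.5-fold. Nr4a1 (-0.14, interval -0.41 to 0.13), Nr4a2 (0.07, interval -0.06 to 0.21) and Bhlhe40 (0.08, interval -0.11 to 0.27) had intervals that include 0. Across the 9 genes 2 were thus higher past 1.5-fold (Irf4 and Myc; 13.7% of all genes were) and 1 was lower (Batf; 8.20%), and their median of 0.08 was near the 0.04 of all genes.

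In Tregs Nr4a1 had the largest ratio of the set, at log2 -0.57 (interval -0.73 to -0.42), from 893 UMIs in WT to 551 in KO. Bhlhe40 was lower by -0.41 (interval -0.64 to -0.19) and Irf4 higher by 0.24 (interval 0.03 to 0.45). Ratios of Nr4a2 (-0.10), Nr4a3 (-0.19), Egr2 (-0.17), Nfatc1 (0.14) and Myc (0.14) had intervals that include 0. No gene passed 1.5-fold in Tregs in either direction, where 6.93% of all genes were higher and 3.62% lower, and the median was -0.17 against 0.04 over all genes. Whether the effects of genotype differ between the lineages was not tested.

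**Figure D2:**
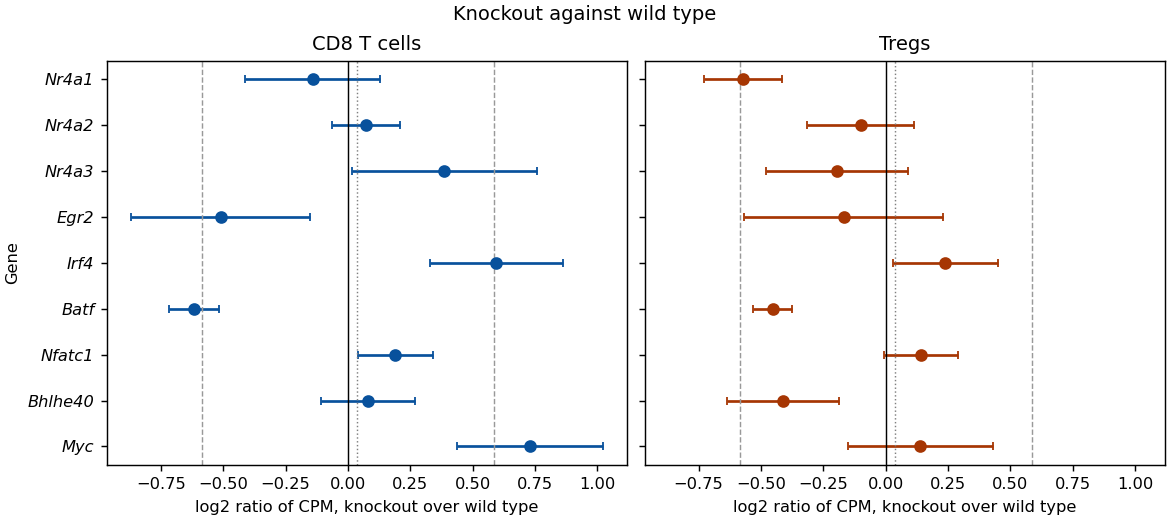
KO to WT log2 ratio of each gene in CD8 T cells and Tregs (x axis), with exact conditional 95% intervals that cover counting error only; dashed lines mark 1.5-fold and the dotted line the median of all genes. Batf lies left of 0 in both lineages (-0.62 and -0.45), and Irf4 and Myc lie right of the dashed line in CD8 T cells (0.59 and 0.73).

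The make-up of the CD8 T cells differed between the libraries, and several ratios moved with it. Cells without a Ccr7 or Lef1 UMI, transcripts of naive and memory-like T cells, were 55.0% of WT and 31.2% of KO CD8 T cells, and cells with 2 or more UMIs of proliferation genes were 24.5% and 11%. Among CD8 T cells without a Ccr7 or Lef1 UMI, Nr4a2 (0.58, interval 0.42 to 0.74), Irf4 (0.95, interval 0.59 to 1.30), Bhlhe40 (0.72, interval 0.49 to 0.95) and Nfatc1 (0.53) were higher in KO, and the Batf ratio shrank to -0.24 (interval -0.37 to -0.11). Among those with such a UMI, Batf was at -0.65, Egr2 at -0.78, Nr4a3 at 0.81 and Bhlhe40 at -0.34, so Bhlhe40 had opposite signs in the 2 strata. Myc was higher in KO in both (0.49 and 0.76). In CD8 T cells with 2 or more proliferation UMIs Myc was at -0.001 (interval -0.65 to 0.62), against 0.84 in those with fewer. Nr4a2 was at -0.25 (interval -0.41 to -0.09) with fewer than 2 proliferation UMIs and at 0.75 (interval 0.49 to 1.01) with 2 or more. Bhlhe40 was at -0.22 (interval -0.47 to 0.03) and 0.85 (interval 0.55 to 1.14) in these cells. The part of this difference in make-up in the ratios of all CD8 T cells was not tested.

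Among Tregs the corresponding shares were 48.6% of WT and 42.6% of KO cells, and 13.2% and 15.6% had 2 or more proliferation UMIs. Nr4a1 was lower in KO Tregs without a Ccr7 or Lef1 UMI by -0.78 (interval -1.03 to -0.54) and in those with one by -0.38, while Batf was at -0.43 and -0.45. In the same order Bhlhe40 was at -0.08 (interval -0.44 to 0.29) and -0.62 (interval -0.91 to -0.33). Egr2 (-0.66 and 0.09) and Myc (0.57 and -0.11) had opposite signs in the 2 strata. Of these intervals for Egr2 and Myc, only that of Myc without such a UMI (0.08 to 1.07) excluded 0. At an equal number of Tnfrsf9 UMIs, where the cells are not matched in state, the Nr4a1 ratio was -0.18 (interval -0.45 to 0.10) in Tregs with no Tnfrsf9 UMI and -0.22 (interval -0.46 to 0.02) in those with 2 or more. Bhlhe40 was at -0.44 (interval -0.78 to -0.09) and 0.05 (interval -0.34 to 0.44) in these cells. Cells with 2 or more Tnfrsf9 UMIs were 32.7% of WT and 13.6% of KO Tregs, and in the KO library fewer cells with antigen contact and fewer UMIs from the disrupted locus cannot be told apart. With the same limit, CD8 T cells with no Tnfrsf9 UMI had KO to WT ratios of -0.70 for Batf, -0.62 for Egr2, -0.39 for Nr4a1 (interval -0.75 to -0.03), 0.59 for Irf4 and 0.76 for Myc. Those with 2 or more (136 WT and 48 KO cells) had 1.23 for Nr4a2, 1.13 for Nr4a1, 0.90 for Bhlhe40, 0.79 for Nfatc1 and -0.10 for Batf. In the same cells Irf4 was at 0.73, Egr2 at 0.10 and Myc at 0.05 (interval -0.85 to 0.87).

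**Figure D3:**
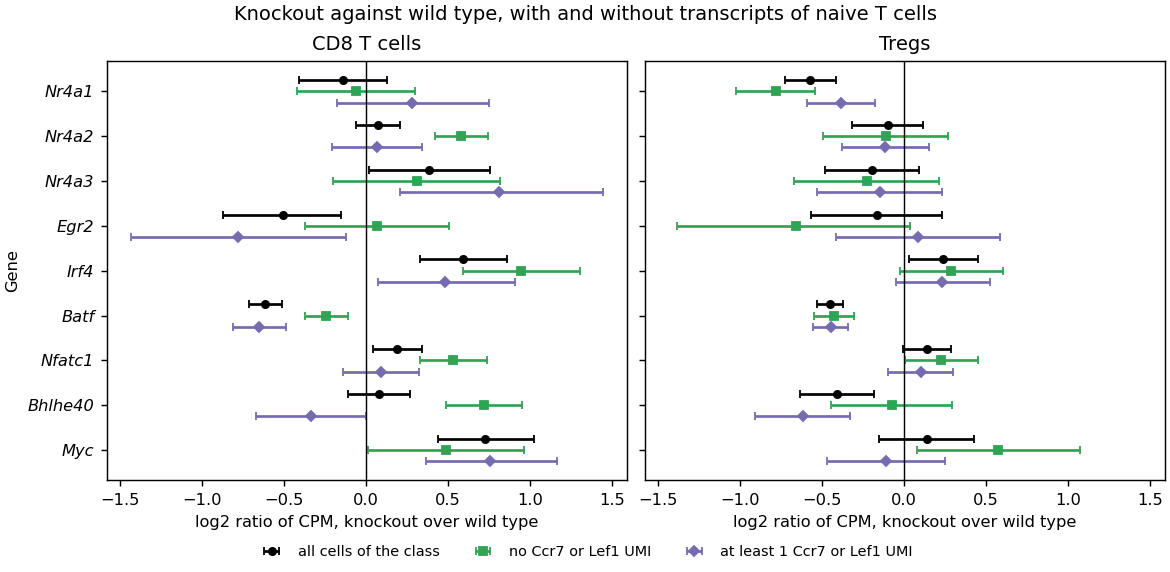
KO to WT log2 ratio of each gene (x axis) in all cells of a class (circles) and in cells without (squares) and with (diamonds) a Ccr7 or Lef1 UMI, with exact conditional 95% intervals that cover counting error only. Bhlhe40 in CD8 T cells has opposite signs in cells without (0.72) and with (-0.34) such a UMI, and Nr4a1 in Tregs lies farther from 0 in cells without one (-0.78) than in cells with one (-0.38).

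Other genes of the pathway were counted by list, beside the 13.7% of all genes that were higher and the 8.20% that were lower past 1.5-fold in KO CD8 T cells. In KO against WT CD8 T cells 7 of 9 quiescence factors were higher past 1.5-fold and none lower, among them Lef1 (1.37), Ccr7 (1.33), Bach2 (1.25) and S1pr1 (1.18), with a list median of 1.03. Of 9 immediate early genes, which tissue dissociation also induces, 6 were higher, including Jun (0.82), Junb (0.73), Fos (0.70) and Fosb (0.70). Among 12 other nuclear factors only Rel, an NF-kB subunit, was higher (1.45), and Tox2 (-0.86) and the Batf relative Batf3 (-0.65) were lower. Of 12 surface and secreted products, 2 were higher (Cd69 1.01 and Nrn1 0.69) and 2 lower (Pdcd1 -0.93 and Tnfrsf4 -0.62), and of 10 TCR feedback regulators 3 were higher (Spry2 0.78, Tnfaip3 0.67 and Nfkbia 0.64). None of 8 Myc-linked biosynthesis genes passed 1.5-fold in either direction although Myc did, and 3 of 5 proliferation genes were lower (Ube2c -1.44, Cdk1 -1.33 and Birc5 -1.22).

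In KO against WT Tregs, where 6.93% of all genes were higher and 3.62% lower past 1.5-fold, the counts were lower than in CD8 T cells, as they were over all genes. Of 9 quiescence factors 2 were higher (S1pr1 0.84 and Klf2 0.67), and the list median was 0.41 against 0.04 over all genes. Rel (0.61) was the only 1 of 11 other nuclear factors that was higher, and none was lower. The MAP kinase phosphatase Dusp6 (0.71) was the only 1 of 9 TCR feedback regulators, with a list median of -0.05. Of 5 proliferation genes 2 were higher (Mki67 1.01 and Top2a 0.64), but the list median was -0.02. Among 12 surface and secreted products none was higher and 1 was lower, the inhibitory receptor Lag3 (-0.61). None of the 9 immediate early genes or 8 biosynthesis genes passed. Rel was thus higher in KO cells of both lineages, as Batf was lower.

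Of the set, Nr4a1 and Myc had the highest ratios between Tregs with 2 or more and with no Tnfrsf9 UMI in both libraries. In WT Tregs with 0, 1, 2 to 4 and 5 or more Tnfrsf9 UMIs (773, 272, 289 and 218 cells), Nr4a1 was at 55.8, 78.9, 130.9 and 174 CPM. KO Tregs in the same bins (1016, 231, 159 and 38 cells) gave 49.3, 72.1, 110.3 and 199.9 CPM. Levels thus stood higher in each next bin of both libraries. Median depth also stood higher from bin to bin, from 3486 to 6243 UMIs in WT and from 3847 to 6248.5 in KO Tregs, and Nr4a1 was compared again in cells of 3000 to 8000 UMIs. Between cells with 2 or more and with no Tnfrsf9 UMI the log2 ratio was 1.43 (interval 1.19 to 1.67) in WT and 1.39 (interval 1.11 to 1.67) in KO Tregs, and within that depth band it was 1.81 and 1.62. With cells thinned to 2000 UMIs it was 2.03 and 1.70.

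The other genes of the set followed Tnfrsf9 in Tregs to different degrees. Nr4a3 was higher in WT Tregs with 2 or more Tnfrsf9 UMIs by 0.98 (interval 0.55 to 1.43), Nr4a2 by 0.76 (interval 0.43 to 1.09) and Myc by 1.39 (interval 0.88 to 1.93; 32.9 against 12.5 CPM). Irf4 (0.49), Batf (0.46) and Bhlhe40 (0.45) were higher below 1.5-fold, while Egr2 and Nfatc1 were both at -0.23. The count was 4 of 9 genes higher and none lower, where 10.2% of all genes were higher and 10.9% lower, with a median of 0.49 against -0.01. In KO Tregs 6 of 9 genes were higher and none lower, against 7.29% and 10.1% of all genes, and the median was 0.71 against -0.01. They were Nr4a1, Nr4a3 (1.10), Egr2 (0.67), Batf (0.71), Bhlhe40 (0.94) and Myc (1.20). The Egr2 ratio came from 22 and 50 UMIs and had an interval of -0.12 to 1.42 that includes 0. Nr4a2 (0.25), Irf4 (0.33) and Nfatc1 (0.36, interval 0.10 to 0.62) did not pass.

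In WT CD8 T cells the series was shallower for Nr4a1 and clearer for Egr2. Over the bins of 0, 1, 2 to 4 and 5 or more Tnfrsf9 UMIs (651, 104, 93 and 43 cells), Nr4a1 was at 28.2, 32.0, 43.2 and 43.6 CPM, Egr2 at 17.3, 13.9, 24.8 and 55.3 CPM, and Nr4a2 at 97.2, 147, 101 and 231 CPM. Egr2 and Nr4a2 were therefore highest in the top bin but did not climb through every bin. Median depth went from 5609 to 12973 UMIs over these bins. Cells with 2 or more against no Tnfrsf9 UMI gave 1.04 for Egr2 (interval 0.53 to 1.55; 35.6 against 17.3 CPM), 0.98 for Nr4a3, 0.62 for Nr4a1, 0.60 for Nr4a2, 0.47 for Bhlhe40, 0.46 for Myc, 0.22 for Irf4, 0.12 for Nfatc1 and 0.02 for Batf. Of the 9 genes 4 were higher and none lower, where 10.9% of all genes were higher and 16.7% lower, and the median was 0.47 against -0.01. Within 3000 to 8000 UMIs (33 and 464 cells) Egr2 was at 1.84, Nr4a1 at 0.65, Nr4a2 at 1.10 and Myc at -0.60. With cells thinned to 2000 UMIs Egr2 was at 1.30 and Nr4a3 at 0.79, but Nr4a1 (0.30) and Nr4a2 (0.09) no longer passed 1.5-fold.

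Among the 4 classes, KO CD8 T cells had the highest ratios for Nr4a1, Nr4a2, Egr2, Bhlhe40 and Nfatc1 and the fewest cells. Only 48 of 1200 had 2 or more Tnfrsf9 UMIs, with a median depth of 11416.5 UMIs against 5160 in cells with none. Nr4a2 stood at 95.3, 170.5, 295 and 522 CPM over the 4 bins (1058, 94, 39 and 9 cells) and Nr4a1 at 21.5, 43.8, 80.3 and 146 CPM. Ratios of 2 or more against no UMI were 2.14 for Nr4a1 (interval 1.67 to 2.60), 1.86 for Nr4a2 (interval 1.62 to 2.09), 1.75 for Egr2, 1.30 for Bhlhe40, 1.04 for Nr4a3, 0.79 for Nfatc1 and 0.62 for Batf. Of the 9 genes 7 were higher past 1.5-fold, where 16.9% of all genes were, and none was lower, where 19.2% were. Irf4 (0.36) and Myc (-0.25, interval -1.06 to 0.46) did not pass. Among KO CD8 T cells without a Ccr7 or Lef1 UMI, Nr4a1 was at 0.93, Nr4a2 at 0.94, Nfatc1 at 0.51, Bhlhe40 at 0.32 and Egr2 at 0.08. In that stratum Nr4a1 was higher in WT and KO Tregs (1.58 and 1.49). Egr2 was higher in WT CD8 T cells (1.03) and Bhlhe40 in KO Tregs (0.60). Nr4a2 and Nfatc1 stayed highest in KO CD8 T cells.

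The Nr4a1 value among these 48 cells rested on cells with an Il2ra or Ikzf2 UMI. Of the 48 cells, 19 passed a stricter rule (3 or more Cd8a and Cd8b1 UMIs and no UMI of Cd4, Foxp3, Il2ra or Ikzf2), and they held 2 of the 55 Nr4a1 UMIs, whereas the other 29 held 53. Each of the 29 had 3 or more Cd8a and Cd8b1 UMIs and failed the rule through Il2ra or Ikzf2, which CD8 T cells can also express. Under the stricter rule the Nr4a1 ratio turned to -1.08. Nr4a3 had 3 UMIs in the 19 cells and 18 in the other 29, and its ratio went from 1.04 to 0.12 under that rule. Nr4a2 was spread over both groups of cells, with 73 UMIs (366 CPM) in the 19 cells and 127 UMIs (335 CPM) in the other 29. In WT CD8 T cells with 2 or more Tnfrsf9 UMIs, 39 of 136 passed the stricter rule and held 28 of the 73 Nr4a1 UMIs. Nr4a1 was at 70.3 CPM in these 39 cells and at 35.0 CPM in the others. The WT ratio went the other way, from 0.62 to 1.61 under the stricter rule. Whether the cells that did not pass include CD8 T cells and Tregs caught in 1 droplet was not tested.

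**Figure D4:**
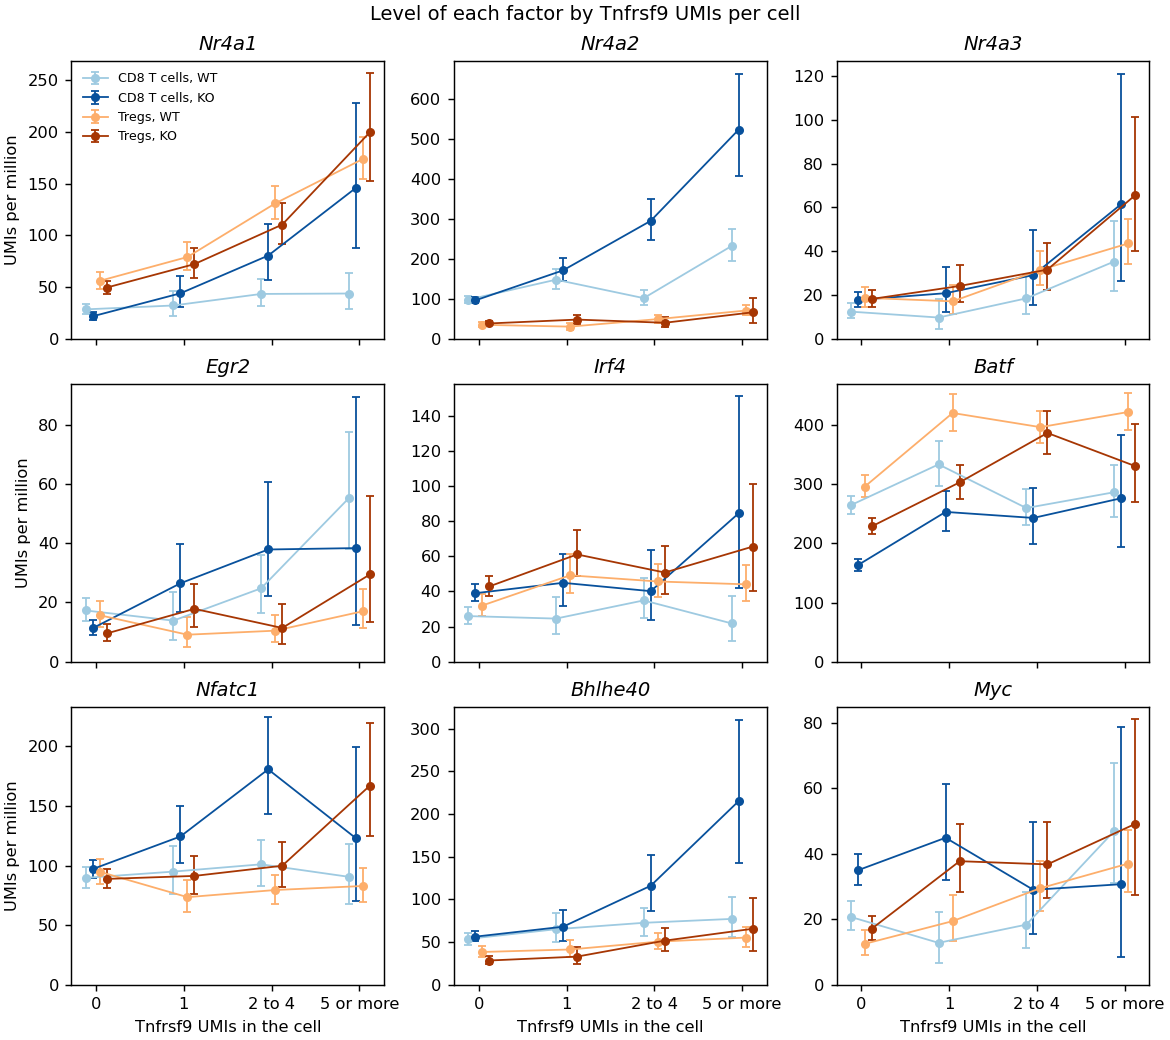
CPM of 9 genes (y axis, 1 panel a gene, with its own scale) in cells with 0, 1, 2 to 4 and 5 or more Tnfrsf9 UMIs (x axis), by lineage and genotype, with exact Poisson 95% intervals that cover counting error only. Nr4a1 stands higher in each next bin of WT Tregs (55.8 to 174 CPM) and KO Tregs (49.3 to 199.9 CPM), whereas Batf in WT CD8 T cells does not.

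The other gene lists also differed with Tnfrsf9, and their counts stand beside the shares of all genes given above for each class. In WT Tregs with 2 or more Tnfrsf9 UMIs, 5 of 8 Myc-linked biosynthesis genes were higher past 1.5-fold and none lower (Srm 1.16, Odc1 1.07, Fbl 0.88 and Eif5a 0.77), beside the higher Myc itself. Of 9 immediate early genes 5 were lower and none higher (Hspa1a -1.75, Hspa1b -1.37, Fos -1.19 and Jun -1.19), a direction opposite to that of Nr4a1. Of 9 quiescence factors 6 were lower (Klf2 -1.78, S1pr1 -1.65, Foxp1 -0.93 and Bach2 -0.88) and 1 higher (Satb1). Of 5 proliferation genes 4 were higher. Among 12 surface and secreted products 4 were higher, including Xcl1 (2.01), Cd200 (1.25) and Tnfrsf4 (1.17), and 2 were lower. Feedback regulators were higher in 2 of 9 and lower in 1, and other nuclear factors higher in 1 of 11 and lower in 1.

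In WT CD8 T cells 7 of 8 biosynthesis genes were higher (Srm 1.24, Odc1 1.08, Eif5a 1.00 and Ncl 0.89), 5 of 9 immediate early genes were lower, 1 of 5 proliferation genes was higher, and 8 of 9 quiescence factors were lower (S1pr1 -2.71, Lef1 -2.52, Ccr7 -1.82 and Klf2 -1.62). Xcl1 (3.17), Spry1 (2.62), Batf3 (2.38) and Dusp4 (1.56) were higher. As lists, 5 of 12 surface and secreted products were higher and 1 lower. Only 1 of 12 other nuclear factors was higher and 2 were lower, with a median of 0.09. Feedback regulators were higher in 2 of 9 and lower in none, with a median of -0.11 against -0.01 over all genes. In KO Tregs and KO CD8 T cells 5 of 9 and 6 of 10 feedback regulators were higher with Tnfrsf9 (Dusp4 1.34 and 3.10), as were 7 and 9 of 12 surface and secreted products, 3 and 2 of 8 biosynthesis genes and 2 and 5 of 5 proliferation genes. In these 2 classes 5 and 7 of 9 quiescence factors were lower and none higher. Immediate early genes were lower in 3 and 5 of 9 and higher in 0 and 1. Other nuclear factors were higher in 3 and 6 of 11 and lower in none.

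Counted per cell, the set was spread thinly. With each cell reduced to 2000 UMIs, 2 or more of the 10 genes were detected in 28.7% of WT CD8 T cells (251 of 874, interval 25.7% to 31.8%), 21.8% of KO CD8 T cells (258 of 1184), 25.1% of WT Tregs (371 of 1476) and 20.9% of KO Tregs (290 of 1389). Without the reduction the shares were 64.4%, 52.8%, 52.3% and 48.1%. From 0 to 5 or more Tnfrsf9 UMIs the reduced share went from 26.0% to 53.5% in WT CD8 T cells, from 19.1% to 66.7% in KO CD8 T cells (9 cells in the top bin), from 19.0% to 38.1% in WT Tregs and from 17.3% to 45.9% in KO Tregs. Cells richest in Tnfrsf9 had the highest share in all 4 classes.

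**Figure D5:**
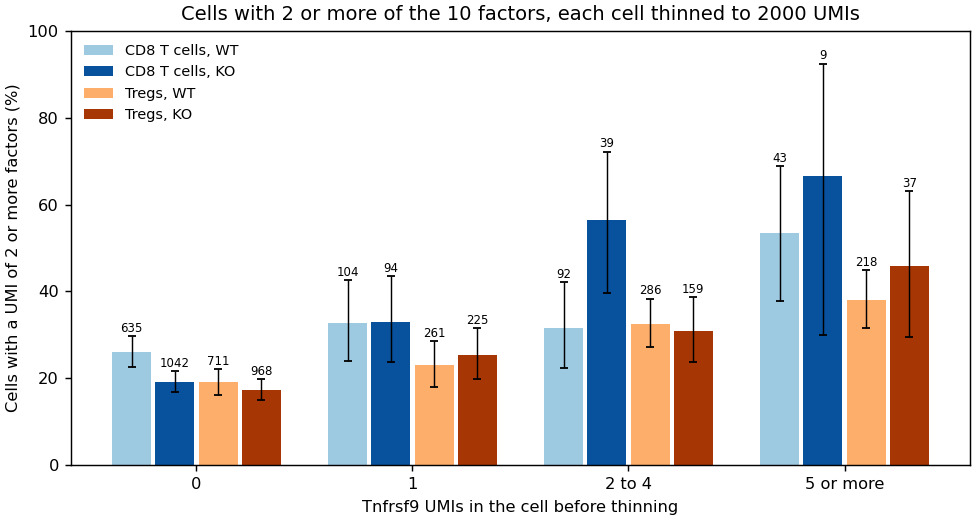
Share of cells with 2 or more of the 10 genes detected (y axis, percent of cells reduced to 2000 UMIs) by Tnfrsf9 UMIs per cell, lineage and genotype, with Clopper-Pearson 95% intervals. The share is lowest with no Tnfrsf9 UMI (17.3% to 26.0%) and highest with 5 or more (38.1% to 66.7%).

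For most pairs of genes, the second was detected more often in cells that had the first than in cells that did not. Among WT Tregs reduced to 2000 UMIs, 25 of 54 cells with an Nr4a3 UMI also had an Nr4a1 UMI (46.3%), against 10.7% of cells without Nr4a3, and 17 of 38 cells with an Egr2 UMI had one (44.7% against 11.1%). In CD8 T cells the partner was Nr4a2: of cells with an Nr4a1 UMI 34.8% in WT and 38.6% in KO had an Nr4a2 UMI, against 16.4% and 13.2% of the others, and of cells with an Egr2 UMI 37.1% and 44.4% had one, against 16.6% and 13.5%. Over all ordered pairs with a value, the share was higher in cells with the first gene in 56 of 72 pairs in WT CD8 T cells, 67 of 81 in KO CD8 T cells, 64 of 81 in WT Tregs and 58 of 81 in KO Tregs. The intervals stood apart in that direction in 8, 17, 14 and 10 pairs and in the other direction in none. Pairs share cells and genes, so these counts are a description.

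Across the 16 groups of lineage, genotype and Tnfrsf9 bin, which share 2 libraries and differ in depth, the genes fell into different patterns. The Pearson correlation of log2 (CPM + 10) was 0.84 for Nr4a1 with Nr4a3, 0.90 for Nr4a2 with Bhlhe40 and 0.78 for Nr4a2 with Egr2, but -0.08 for Nr4a1 with Nr4a2. Of 8857 other genes with at least 200 UMIs, the 6 whose profile was most like the mean of the set were Cd200 (r = 0.93), Kcnq5 (0.93), Gm28285 (0.91), Hivep3 (0.90), Gfod1 (0.89) and Dusp4 (0.88). Cd200, an immunoregulatory surface protein, and Dusp4, a phosphatase of ERK, were on the gene lists above, and the other 4 were not.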

How the data were processed

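Droplet 3′ libraries of islet CD8 T cells and Foxp3-eGFP+ Tregs were analysed, 1 per genotype. The deposited matrices hold raw UMI counts per gene and cell, which the authors made with Cell Ranger 7.0.0 on mm10 (submitters' processing notes). Whether intronic reads were counted is not given in the sources used here. Counts are unnormalized. Members and gene lists were chosen with earlier results of these data known.

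Filters on detected genes (200 to 5000) and on mitochondrial UMIs (20% or less) left 2714 of 2804 WT and 2915 of 2991 KO barcodes, which were divided into lineages by raw UMIs. Doublets were not removed. Class totals ran from 7014920 to 8888924 UMIs. UMIs were summed per class and expressed as CPM, with a count of 0 set to a floor of 3 in a ratio and no ratio where both counts were at or under 3. Shares of cells were computed after thinning to 2000 UMIs per cell, leaving out shallower cells. No test was made because each genotype has 1 library. All genes of the set with a ratio are named in each comparison, as are the 6 most similar genes. Of the other lists, at most 4 genes past 1.5-fold are named per comparison, and not every such gene is given. Counts of these lists between the lineages are not given.

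Python 3.11.15 (numpy 2.4.6, scipy 1.17.1, pandas 2.3.3, matplotlib 3.10.9) was used, with R 4.3.3 and edgeR 4.0.16 for TMM factors only. Scripts were tested on simulated data. Gene positions are from GENCODE and sequences from RefSeq. Alternatives covered filters, lineage rules, scaling, thinning, cell weighting, depth bands and strata. One gene of the quiescence list, and the strata planned with it, are not reported here.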

Additional observations from a re-analysis of the deposited data

How the results depend on the processing

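No paired analysis was possible because each genotype has 1 library, so no replicate could be left out and intervals cover counting error only. Of the values of single genes under other settings, 724 stayed within their interval, 170 moved beyond it and 2, both past 1.5-fold in the report, changed sign. These were in KO CD8 T cells with Tnfrsf9: Nr4a1 at -1.08 under the stricter lineage rule and Batf at -0.052 within 3000 to 8000 UMIs. Of the values within 1.5-fold in the report, 48 of 500 also changed sign under another setting. The cause of these moves was not tested. Counts of genes past 1.5-fold changed as follows. KO against WT CD8 T cells, 2 higher in the report: 1 with TMM factors, 1 with median-of-ratios factors, 1 without proliferating cells and 5 among cells with 2 or more Tnfrsf9 UMIs. KO against WT CD8 T cells, 1 lower in the report: 2 with stricter cell filters, 3 with thinned cells, 2 with the stricter lineage rule, 2 without proliferating cells, 2 with cells weighted alike, 0 among cells without and 2 among cells with a Ccr7 or Lef1 UMI, 2 among cells without Tnfrsf9 and 0 among those with 2 or more Tnfrsf9 UMIs. KO against WT Tregs, 0 lower in the report: 1 with TMM, median-of-ratios, thinning, no proliferating cells, no Tnfrsf9 UMI, a Ccr7 or Lef1 UMI or cells weighted alike, and 2 without a Ccr7 or Lef1 UMI. The strata with 2 or more Tnfrsf9 UMIs and with or without a Ccr7 or Lef1 UMI were chosen after seeing the data. CD8 T cells against Tregs: in WT, 2 higher became 1 with cells weighted alike. In KO, 2 higher became 4 with thinning and 1 with the stricter lineage rule, and 1 lower became 2 with stricter cell filters, 4 with the stricter lineage rule and 2 without proliferating cells. Tnfrsf9 in WT CD8 T cells: 4 higher became 2 without a Ccr7 or Lef1 UMI or with cells weighted alike, and 0 lower became 1 within 3000 to 8000 UMIs. Tnfrsf9 in KO CD8 T cells: 7 higher became 3 with the stricter lineage rule and 4 without a Ccr7 or Lef1 UMI, and 0 lower became 2 with the stricter lineage rule and 1 with thinning, without proliferating cells or within 3000 to 8000 UMIs. The Tnfrsf9 counts in Tregs of both genotypes stayed within 1.5 times under the settings run. Thinning to 3000 UMIs in place of 2000 gave shares of cells with 2 or more genes of 39.0% (WT CD8), 33.3% (KO CD8), 39.2% (WT Treg) and 33.9% (KO Treg), and no thinning gave 64.4%, 52.8%, 52.3% and 48.1%.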

Other observations

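Cells that met neither lineage rule (271 in each library) had Nr4a1 at 106 CPM in WT and 43.5 CPM in KO, Batf at 323 and 215 CPM, and Nr4a2 at 55.8 and 36.6 CPM. Cells with more than 5000 detected genes, which were left out above (65 WT and 55 KO cells), had Nr4a1 at 46.0 and 33.0 CPM, Nr4a2 at 30.5 and 65.5 CPM, and Batf at 303 and 235 CPM.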
